A study of Mus musculus with 2 samples.

Results

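The Zfp-named zinc finger genes are the mouse genes whose symbol is Zfp followed by a number, a naming series that gathers most KRAB zinc finger genes together with other proteins that carry zinc fingers. They were chosen by name alone from a deposited table of transcript levels, as the entries whose status was OK (a flag of the quantification program for enough reads) and whose gene column held such a symbol. This gave 310 entries with 312 distinct symbols among the 14865 entries of that status that carried any gene symbol. Of these 310, 9 entries joined several symbols in 1 entry, 4 symbols had 2 entries, and 21 entries had the same locus as another Zfp-named entry, so that reads could be divided between them. The levels came from strand-specific mRNA-seq of 1 library of Dnmt1+/+ mouse embryonic fibroblasts (MEFs) and 1 library of Dnmt1-/- MEFs. Dnmt1 encodes the maintenance DNA methyltransferase, and the name Dnmt1-/- stands here for cells with 2 copies of an allele of reduced function (Dnmt1 n/n), while the control MEFs are wild type for Dnmt1. Both are also null for trp53, which encodes p53, and the strain was not given. With 1 library per genotype there was no estimate of the spread between replicates, so no difference below has a replicate check or a p-value.

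KRAB zinc finger proteins bind DNA through a row of C2H2 zinc fingers, and through their KRAB box most of them recruit Trim28 (KAP1). Trim28 in turn brings in the histone H3K9 methyltransferase Setdb1, heterochromatin protein 1 and the NuRD complex, which silence the bound DNA. Many members of the family bind retroelements, a few maintain the DNA methylation of imprinted regions, and their genes lie in large clusters that grew by tandem duplication.

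Levels are given as RPKM, read counts adjusted for transcript length and for sequencing depth. A change is the difference of log2(RPKM + 0.1) between the Dnmt1-/- and the Dnmt1+/+ library, a scale on which the change of a gene near 0 RPKM appears too small. Dnmt1 itself was at 65.2 RPKM in the Dnmt1+/+ and 14.5 RPKM in the Dnmt1-/- library, a log2 change of -2.16. The fibroblast markers were expressed, with all 10 listed markers past 1 RPKM in the Dnmt1+/+ library. In the Dnmt1-/- library Thy1 fell from 4.84 to 0.129 RPKM, under 1 RPKM. Of the 10 markers, 2 were over 2-fold higher and 4, Thy1 among them, over 2-fold lower in the Dnmt1-/- library. None of 5 epithelial and 4 endothelial markers reached 1 RPKM. Of 4 leukocyte markers Ptprc and Emr1 were listed at 0 in both libraries, whereas Csf1r and Cd68 together went from 0.666 RPKM in the Dnmt1+/+ to 9.71 RPKM in the Dnmt1-/- library. Of 4 neuronal markers Tubb3 alone reached 1 RPKM, at 16.9 RPKM in the Dnmt1+/+ and 12.9 RPKM in the Dnmt1-/- library, and Rbfox3 and Snap25 were listed at 0 in both. The part of these shifts in the zinc finger results was not tested, and within bulk RNA fewer cells of a type cannot be told apart from less RNA per cell.

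Most Zfp-named genes were transcribed in MEFs, at low levels. Of the 310, 259 (83.5%) reached 1 RPKM in at least 1 of the libraries and were kept, against 75.6% of all such entries with a symbol. Of these, 220 reached 1 RPKM in both libraries, 32 in the Dnmt1+/+ library alone and 7 in the Dnmt1-/- library alone. The values closest to this minimum were those of Zfp558, whose higher value was 0.991 RPKM and which was left out, and of Zfp964, whose higher value was 1.06 RPKM and which was kept. The 259 had a median of 3.77 RPKM in the Dnmt1+/+ library, against 11.7 RPKM for the 10985 other kept genes. Under 5 RPKM in the Dnmt1+/+ library lay 61.0% of the Zfp-named genes and 27.1% of the other kept genes. No member was listed at 0 in both libraries or at 0 in one and at 1 RPKM or more in the other. A further 20 entries with a Zfp name had another status and were not used, and 15 of them were listed at 0 in both libraries. These 15 include 3 with the status FAIL, whose levels were not measured, and the entries of Zfp131 on sequence labelled 13_random.

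At the top of the range, Zfp706 was at 102.4 RPKM in the Dnmt1+/+ and 134.6 RPKM in the Dnmt1-/- library, and a second entry at the same locus was at 33.2 and 43.4 RPKM. Zfp207, which encodes the kinetochore and splicing protein BuGZ, was at 54.8 and 39.0 RPKM. Zfp106, an RNA-binding protein, was at 47.2 and 33.5 RPKM, and Zfp330 was at 47.0 and 36.5 RPKM. Zfp259, which encodes the zinc finger protein Zpr1, was at 37.2 and 44.4 RPKM. Each of these 5 genes differed by less than 2-fold between the libraries, and none held a KRAB box.

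Zfp-named genes were more often lower than higher in Dnmt1-/- MEFs. Of the 259 that passed 1 RPKM, 43 (16.6%) were over 2-fold lower and 7 (2.7%) over 2-fold higher in the Dnmt1-/- library. Across all 11244 kept genes the shares were 10.9% lower and 8.47% higher. The log2 change was below 0 for 205 of the 259 (79.2%), compared with 59.6% of all kept genes. The median log2 change was -0.41 for the Zfp-named genes and -0.14 for all kept genes, a shift that the table as a whole showed in part. The quartiles of the Zfp-named genes were -0.87 and -0.08, and those of the other kept genes were -0.55 and 0.27.

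**Figure D1:**
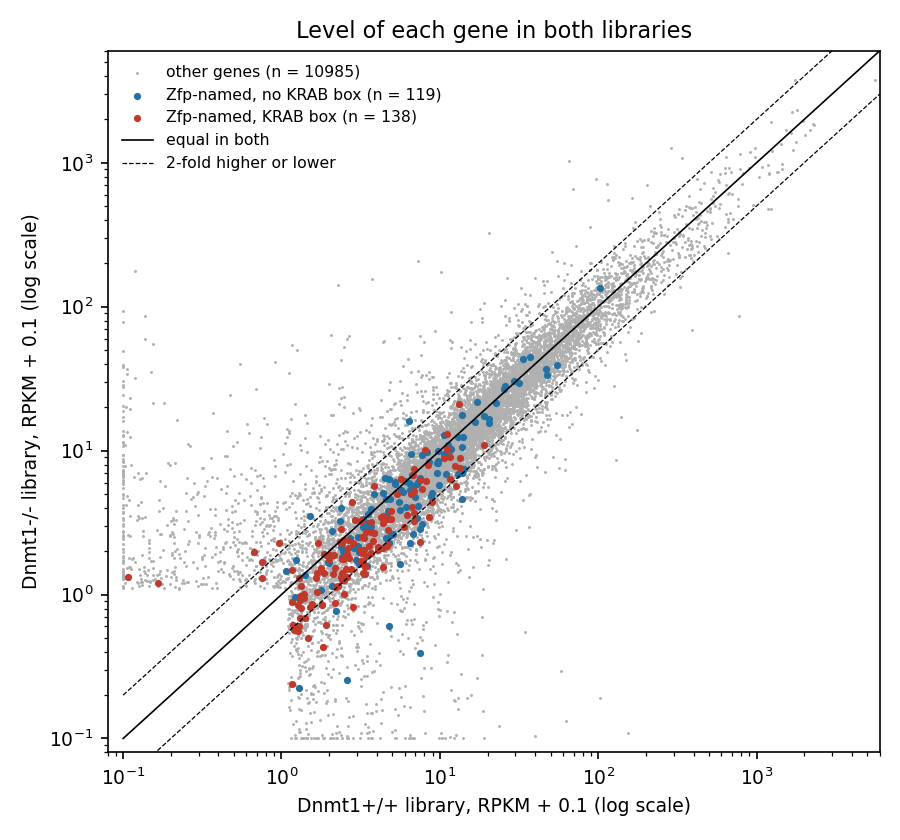
Level of each kept gene in the Dnmt1+/+ library (horizontal axis) and the Dnmt1-/- library (vertical axis), both as RPKM + 0.1 on log scales; each point is 1 entry from 1 library per genotype, and 2 Zfp-named entries without a match in the GENCODE annotation are not drawn. The Zfp-named points lie mostly under the line of equal levels, with 43 beyond the lower 2-fold line and 7 beyond the upper one, while other genes scatter to both sides.

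The 32 and 7 entries that passed the minimum in a single library were bound to be higher there, so the counts were also taken over all 310 entries with no minimum. There 47 were over 2-fold lower and 11 over 2-fold higher, with a median log2 change of -0.38. Among all 14865 entries, 11.1% were over 2-fold lower and 9.92% over 2-fold higher, with a median of -0.09. At a 1.5-fold threshold, 100 of the 259 kept Zfp-named genes were lower and 11 higher, against 23.7% and 14.1% of all kept genes. After the median change of all kept genes had been subtracted, 27 of the 259 were over 2-fold lower and 7 over 2-fold higher. The shares of all kept genes after the same subtraction were not counted, so these 2 counts do not show an excess.

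The change differed with the starting level. For members at 1 to under 5 RPKM in the Dnmt1+/+ library the median log2 change was -0.50 (n = 151 genes), against -0.29 for other genes of that level. At 5 to under 20 RPKM it was -0.28 (n = 88), against -0.18. The 13 members at 20 RPKM or more had a median of -0.08, against -0.11 for the others, and none of the 13 differed by over 2-fold. The 45 members at 0.1 to under 1 RPKM had a median of -0.28, against -0.21, with 4 over 2-fold higher and 4 over 2-fold lower. Between 0 and 0.1 RPKM the median lay above 0, in members and in other genes. The 12 members above 0 but under 0.1 RPKM had a median of 0.71, against 0.30 for 1239 other genes, and 5 of the 12 (41.7%) were over 2-fold higher, against 29.2%. A gene binned by a low value in one library tends to be higher in the other by noise alone, and when the bins were set by the mean of both libraries the median of the lowest bin above 0 was 0.069 (n = 10). The 1 member listed at 0 in the Dnmt1+/+ library, Zfp750, was at 0.0210 RPKM in the Dnmt1-/- library. The 1028 other genes listed at 0 there had a median log2 change of 0, and a gene listed at 0 cannot be lower in the other library.

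**Figure D2:**
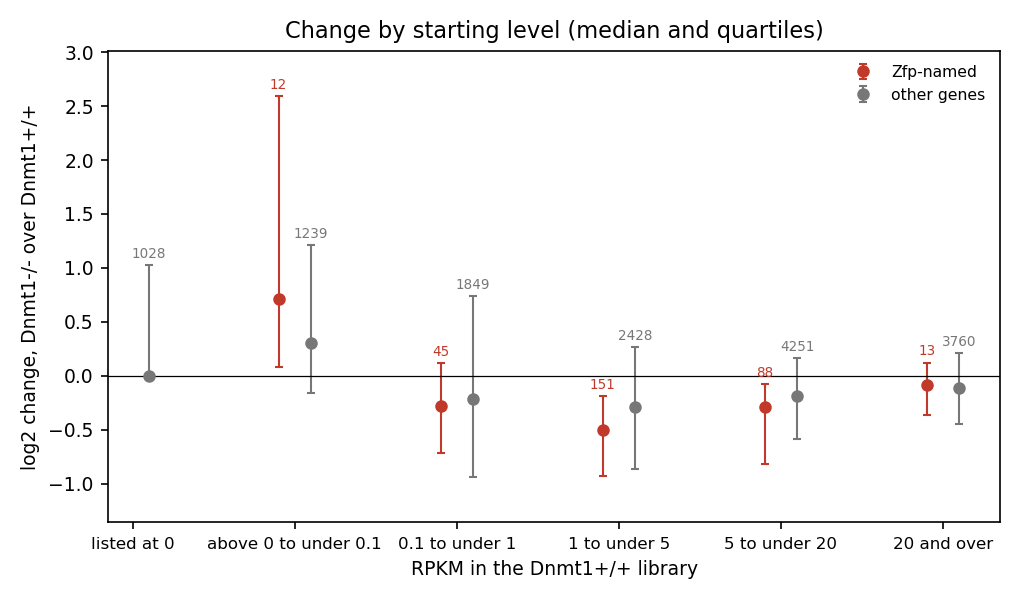
Median log2 change (points) with the lower and upper quartile (bars) for Zfp-named and other genes with status OK, in levels of Dnmt1+/+ RPKM with no minimum; the numbers are genes in each group, and groups of fewer than 3 genes are not drawn. The Zfp-named medians lie below the others at 1 to under 5 RPKM (-0.50 against -0.29), close to them at 20 RPKM and over, and above 0 for the 12 genes under 0.1 RPKM.

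The 10 members with the most negative log2 changes were of several kinds. Zfp532, part of a zinc finger complex with Zfp592 and Zfp687, was at 7.42 RPKM in the Dnmt1+/+ and 0.292 RPKM in the Dnmt1-/- library, a log2 change of -4.26. Zfp422 was at 2.48 and 0.155 RPKM (-3.34). Zfp467, a regulator of the choice between fat cell and bone cell fates, was at 4.66 and 0.509 RPKM (-2.97). In contrast, the partners of Zfp532 stayed within 2-fold, with Zfp592 at 3.40 and 3.04 RPKM and Zfp687 at 6.31 and 5.84 RPKM. Zfp618 was at 1.19 and 0.126 RPKM (-2.51), but its entry covered 10.8% of the span of the annotated gene. Neither Zfp532, Zfp422, Zfp467 nor Zfp618 held a KRAB box.

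The other 6 of the 10 lowest included 5 KRAB genes. Zfp286 was at 1.06 RPKM in the Dnmt1+/+ and 0.139 RPKM in the Dnmt1-/- library (-2.28), and Zfp959 was at 1.72 and 0.335 RPKM (-2.07). For Zfp959, 23.6% of the 50-base windows of the transcript also occur in the transcripts of another gene, so its value is uncertain. Zfp599 was at 2.71 and 0.726 RPKM (-1.77), and its neighbour Zfp810 was at 1.80 and 0.511 RPKM (-1.64). Zfp334 was at 7.39 and 2.22 RPKM (-1.69). The remaining gene, Zfp292, has 15 fingers by pattern and no KRAB box, and was at 5.47 and 1.53 RPKM (-1.77). With a pseudocount of 1 RPKM, 7 of the 10 stayed past 2-fold, and Zfp618, Zfp286 and Zfp810 did not.

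The 7 members over 2-fold higher included 5 with a KRAB box. These 5 were under 1 RPKM in the Dnmt1+/+ library and were kept through the Dnmt1-/- library alone. Zfp709 went from 0.00664 RPKM in the Dnmt1+/+ to 1.22 RPKM in the Dnmt1-/- library (log2 change 3.63), and Zfp345 from 0.0665 to 1.11 RPKM (2.86). Both were close to absent from Dnmt1+/+ MEFs. Zfp882 went from 0.569 to 1.88 RPKM (1.57) and Zfp764 from 0.659 to 1.57 RPKM (1.14). An entry of Zfp97 went from 0.867 to 2.17 RPKM (1.23), while the second Zfp97 entry at the same locus went from 1.28 to 0.840 RPKM (-0.56). Since 80.2% of the windows of the Zfp97 transcript also occur in other genes, both values are uncertain. Windows were also shared by Zfp345 (28.5%) and Zfp764 (27.6%). With a pseudocount of 1 RPKM, Zfp709 and Zfp503 alone of the 7 stayed past 2-fold.

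The 2 higher members without a KRAB box were Zfp503 and Zfp239. Zfp503, a transcriptional repressor that acts in striatal and limb development, was at 6.25 RPKM in the Dnmt1+/+ and 15.9 RPKM in the Dnmt1-/- library (1.34). This was the highest level among the 7. Zfp239 was at 1.41 and 3.41 RPKM (1.21). The next 3 in order stayed within 2-fold. They were Zfp677 at 0.650 and 1.20 RPKM, Zfp36 at 2.26 and 3.86 RPKM, and Zfp746 at 13.1 and 21.1 RPKM. Zfp36 encodes tristetraprolin, which binds AU-rich RNA with CCCH fingers.

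**Figure D3:**
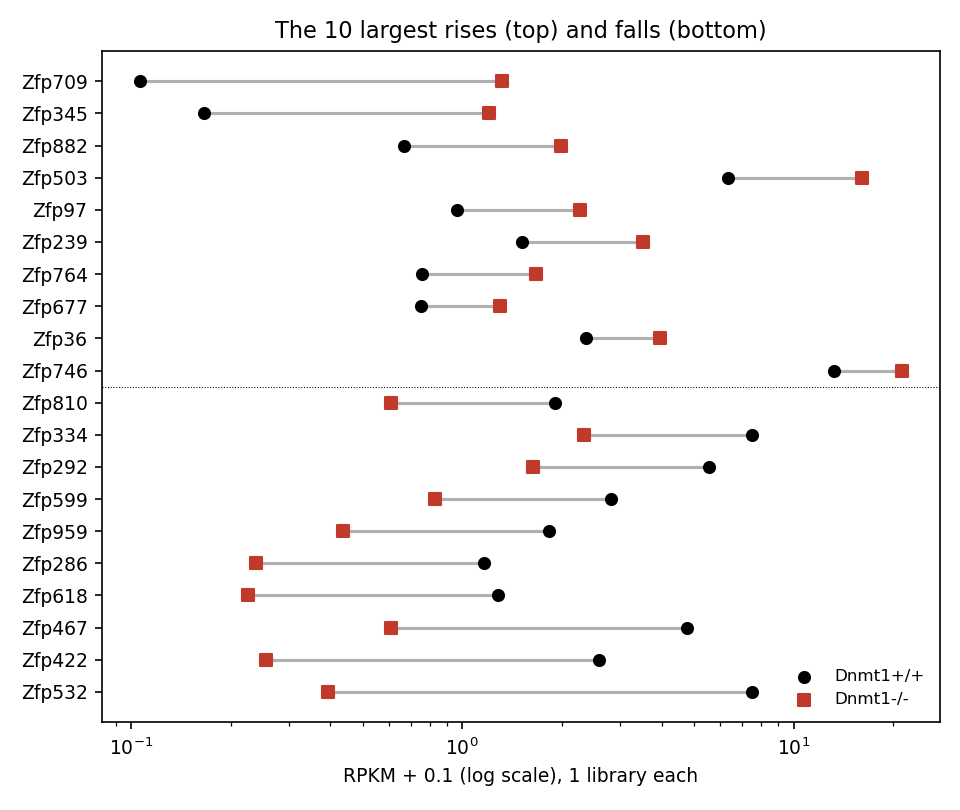
RPKM + 0.1 on a log scale for the 10 kept Zfp-named genes with the highest log2 changes and the 10 with the lowest; circles are the Dnmt1+/+ and squares the Dnmt1-/- library, 1 library each. Zfp709 and Zfp345 start under 0.1 RPKM and reach just over 1 RPKM, while Zfp503 is at 6.25 RPKM in the Dnmt1+/+ library, and Zfp532 has the widest gap downward, from 7.42 to 0.292 RPKM.

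The promoter sequences of 6 KRAB genes are shown because they put members that were higher beside members that were lower. The first 4 are neighbours in 1 cluster on chromosome 8 of NCBI37 (mm9), in the order of the genes, and the other 2 are those of Zfp345, which was higher, and Zfp810, which was lower. Each sequence holds the 250 bases before the RefSeq transcription start, 5′ to 3′ on the strand of the gene, with CpG dinucleotides in capitals. They were taken from the RefSeq promoters of GRCm38.p6 and each matched NCBI37 exactly once on its chromosome, at chr8:74405717-74405966 (plus strand) for Zfp709, chr8:74432255-74432504 (plus) for Zfp882, chr8:74446474-74446723 (plus) for Zfp617, chr8:74474715-74474964 (plus) for Zfp961, chr2:150310800-150311049 (minus) for Zfp345 and chr9:22112083-22112332 (minus) for Zfp810.
Zfp709: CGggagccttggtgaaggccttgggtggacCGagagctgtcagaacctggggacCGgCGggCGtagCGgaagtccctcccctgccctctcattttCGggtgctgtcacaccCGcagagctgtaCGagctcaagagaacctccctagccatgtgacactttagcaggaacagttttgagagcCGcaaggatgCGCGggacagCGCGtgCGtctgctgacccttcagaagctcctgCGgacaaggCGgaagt
Zfp882: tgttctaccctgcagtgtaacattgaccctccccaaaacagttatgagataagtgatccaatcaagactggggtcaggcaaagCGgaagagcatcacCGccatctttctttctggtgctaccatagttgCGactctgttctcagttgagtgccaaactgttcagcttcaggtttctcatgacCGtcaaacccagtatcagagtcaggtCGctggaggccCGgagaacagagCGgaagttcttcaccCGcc
Zfp617: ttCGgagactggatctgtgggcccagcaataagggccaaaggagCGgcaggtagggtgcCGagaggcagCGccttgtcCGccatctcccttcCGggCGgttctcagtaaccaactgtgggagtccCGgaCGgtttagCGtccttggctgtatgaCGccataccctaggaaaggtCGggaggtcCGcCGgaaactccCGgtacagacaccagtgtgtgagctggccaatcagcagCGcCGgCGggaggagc
Zfp961: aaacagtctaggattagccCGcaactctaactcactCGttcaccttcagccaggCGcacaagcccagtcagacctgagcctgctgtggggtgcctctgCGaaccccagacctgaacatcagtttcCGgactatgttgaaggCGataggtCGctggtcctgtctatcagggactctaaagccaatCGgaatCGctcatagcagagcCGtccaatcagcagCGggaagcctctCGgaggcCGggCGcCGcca
Zfp345: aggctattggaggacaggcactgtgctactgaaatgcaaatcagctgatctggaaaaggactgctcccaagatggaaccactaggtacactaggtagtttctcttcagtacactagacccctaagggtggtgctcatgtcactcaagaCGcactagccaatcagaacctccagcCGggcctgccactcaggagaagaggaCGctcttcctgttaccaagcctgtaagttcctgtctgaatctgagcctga
Zfp810: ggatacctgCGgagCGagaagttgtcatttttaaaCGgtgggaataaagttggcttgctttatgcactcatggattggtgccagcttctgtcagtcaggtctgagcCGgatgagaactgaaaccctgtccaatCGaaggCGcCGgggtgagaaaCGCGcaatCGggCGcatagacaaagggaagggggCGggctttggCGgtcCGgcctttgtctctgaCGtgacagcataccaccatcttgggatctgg

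These stretches held 17 CpGs in Zfp709, 8 in Zfp882, 18 in Zfp617, 15 in Zfp961, 3 in Zfp345 and 15 in Zfp810. Zfp709 and Zfp882 were higher in the Dnmt1-/- library. Their neighbour Zfp617 went from 6.79 to 3.16 RPKM (-1.08), though its entry covered 45.4% of the annotated gene, and Zfp961 went from 4.54 to 3.23 RPKM (-0.48). In this cluster the gene with the highest change, Zfp709, and the one with the lowest, Zfp617, had similar CpG numbers.

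Among members as a group, the number of promoter CpGs was counted in the RefSeq window from 250 bases before to 50 bases after the start, which was found for 210 of the 259 kept members and for 8859 of all kept genes. All 210 held at least 1 CpG, as did 99.8% of all kept genes. Members had a median of 16 CpGs and other genes 21.5, and 22.9% of the members had fewer than 10, against 12.9% of all kept genes. KRAB members had a median of 12 CpGs, and members without a KRAB box 21. The median change and the share of higher genes did not follow the CpG number in the same way. The median log2 change was -0.53 (n = 42) at 5 to under 10 CpGs, -0.49 (n = 89) at 10 to under 20, -0.25 (n = 49) at 20 to under 30 and -0.18 (n = 24) at 30 and over. Other genes had medians of -0.07, -0.14, -0.14 and -0.14 in the same classes. Under 5 CpGs there were 6 members with a median of -0.30, while 400 other genes had a median of 0.20, with 33.5% of them over 2-fold higher. The share of members over 2-fold higher was 16.7% (1 of 6) under 5 CpGs and 7.14% (3 of 42) at 5 to under 10. It was 2.25% (2 of 89) at 10 to under 20, 2.04% (1 of 49) at 20 to under 30 and 0 at 30 and over. Among other genes the shares in these classes were larger, at 33.5%, 22.7%, 7.12%, 4.28% and 5.01%. The higher members under 10 CpGs were Zfp345, Zfp97, Zfp764 and Zfp239. All but Zfp239 were kept through the Dnmt1-/- library alone, and so were bound to be higher there. Zfp345, Zfp97 and Zfp764 also share 28.5%, 80.2% and 27.6% of their transcript windows with other genes. The shares of higher members by class therefore show no trend that can be relied on. With promoter windows from GENCODE in place of RefSeq the medians of the members were -0.46 (n = 30) under 5 CpGs, -0.56, -0.47, -0.25 and, at 30 and over, -0.30 (n = 36), so that the last class no longer lay above the one before it. The letters GCCATCTT, searched on both strands because they lie in the site of the transcription factor YY1, were found in the windows of 14 of the 210 members (6.67%) and in 5.62% of all kept genes.

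Members with low levels in the Dnmt1+/+ library had fewer promoter CpGs, as did other genes. The 12 members above 0 but under 0.1 RPKM had a median of 6.5 CpGs, against 14 for the members at 1 to under 5 RPKM and 20 at 5 to under 20 RPKM. Other genes of the same 3 levels had medians of 8, 20 and 22 CpGs. Besides Zfp345 and Zfp709 this group held 3 further KRAB genes over 2-fold higher, which did not reach 1 RPKM. Zfp936 went from 0.0472 to 0.769 RPKM, Zfp600 from 0.00578 to 0.576 RPKM and Zfp583 from 0.0812 to 0.335 RPKM. Their windows held 6, 3 and 3 CpGs. Zfp600 shares 82.5% and Zfp936 27% of its transcript windows with other genes, whereas Zfp583 shares none.

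Members with a KRAB box were lower in the Dnmt1-/- library than members without one. By a profile search of the translated coding sequences of the GENCODE annotation, 138 of the 257 kept members that could be matched held a KRAB box. Their median log2 change was -0.56, and 84.1% lay below 0. Of the 138, 29 (21%) were over 2-fold lower and 5 (3.62%) higher, against 10.9% and 8.47% of all kept genes. The 119 without a KRAB box had a median of -0.25, with 14 (11.8%) lower and 2 (1.68%) higher, and 73.1% lay below 0. Their share of lower genes was thus near that of all kept genes. The difference of the medians was -0.31. The KRAB members were also lower to begin with, at a median of 3.04 RPKM in the Dnmt1+/+ library against 6.36 RPKM. Within the level of 1 to under 5 RPKM the medians were -0.61 for 102 KRAB members and -0.29 for 47 members without the box, and at 5 to under 20 RPKM they were -0.46 (n = 30) and -0.24 (n = 58).

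Among KRAB members the change did not follow the number of fingers steadily. KRAB members with 5 to 9 fingers had a median log2 change of -0.39 (n = 35), those with 10 to 14 fingers -0.68 (n = 64) and those with 15 or more -0.51 (n = 34). Members with neither a KRAB box nor more than 1 C2H2 finger numbered 20 and had a median of -0.12, close to that of all kept genes. This group holds proteins such as Zfp36, Zfp259 and Zfp330, which share the name with the family but not its C2H2 array.

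The base composition of the transcripts moved with the change, in members and in other genes alike. Kept KRAB members had a median of 42.5% G and C in the longest transcript, members without the box 51.3% and other kept genes 50.3%. Other genes under 42% had a median log2 change of -0.48, those at 42 to under 45% -0.25, those at 45 to under 50% -0.09, those at 50 to under 55% -0.07 and those at 55% and over -0.05. KRAB members of the same classes had medians of -0.69 (n = 65), -0.64 (n = 20), -0.44 (n = 28), -0.27 (n = 16) and 0.14 (n = 9). Members without the box had medians of -0.80 (n = 14), -0.23 (n = 14), -0.17 (n = 24), -0.13 (n = 26) and -0.23 (n = 41). After subtraction of the median of other genes of the same class, the median of the Zfp-named genes was -0.21, with 20 over 2-fold lower and 8 higher. The shares of all kept genes after this subtraction were not counted. The difference between members with and without a KRAB box was then -0.11 in place of -0.31. The part of base composition in the lower levels of KRAB members was not tested.

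**Figure D4:**
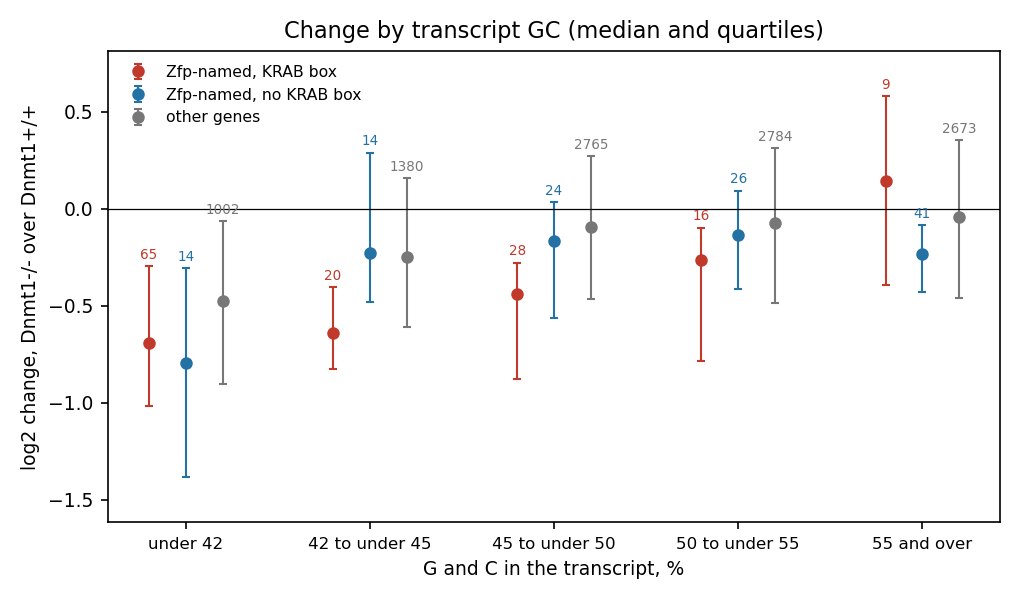
Median log2 change (points) with the lower and upper quartile (bars) by the percentage of G and C in the longest GENCODE transcript, for kept Zfp-named genes with and without a KRAB box and for other kept genes; the numbers are genes in each group. All groups are lowest under 42%, where the medians are -0.69, -0.80 and -0.48, and KRAB genes lie below other kept genes in each class up to 55%, though not below members without the box under 42%.

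Members that silence imprinted regions or retroelements were considered by a list chosen for their roles. Of 7 listed genes 5 passed 1 RPKM, with a median log2 change of -0.60, against -0.14 over all kept genes. Among these 5, 1 was over 2-fold lower and none higher, against 10.9% and 8.47% of all kept genes. Zfp57, which maintains methylation at imprinting control regions, was at 19.0 RPKM in the Dnmt1+/+ and 10.8 RPKM in the Dnmt1-/- library (-0.80). Zfp445, which acts at imprinted regions beside Zfp57, was at 13.3 and 8.72 RPKM (-0.60). Zfp932, a repressor of endogenous retroviruses, was at 4.55 and 2.08 RPKM (-1.09), with 45.1% of its transcript windows shared with other genes. Zfp568, which represses a placental transcript of Igf2, was at 3.59 and 2.60 RPKM (-0.45). The exception in direction was Zfp809, which silences murine leukaemia virus through its primer binding site and was at 7.93 and 9.95 RPKM (0.32). Zfp708 stayed under the minimum at 0.633 and 0.368 RPKM, and Zfp819 was near 0 with another status.

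Widely expressed regulators lay closer to all kept genes. Of 22 listed, 21 had an entry and 21 entries passed 1 RPKM, Zfp706 with 2 of them. Among these 21 entries 2 were over 2-fold lower and none was higher, against 10.9% and 8.47% of all kept genes. Their median log2 change was -0.21. The 2 lower were Zfp532, given above, and Zfp462, a protein linked to heterochromatin and neural development, at 6.4 and 2.18 RPKM (-1.51). The promoter-binding factor Zfp143 was at 7.22 and 5.91 RPKM, and the GC-box factors Zfp148 and Zfp281 were at 9.67 and 8.35 RPKM and at 6.67 and 5.48 RPKM. Zfp598, a ubiquitin ligase of stalled ribosomes, was at 20.5 and 15.4 RPKM, and Zfp622, a factor of ribosome assembly, was at 29.3 and 30.3 RPKM. The entries of Zfp131 both lay on sequence labelled 13_random, with another status and 0 in both libraries, so its level was not measured here. Zfp638 had no entry under that name.

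Of 12 listed developmental regulators 6 passed 1 RPKM, and 5 of these lay below 0, with a median log2 change of -0.63. Over 2-fold differences were seen in 1 higher and 2 lower, against 8.47% and 10.9% of all kept genes. Besides Zfp503 and Zfp467, Zfp521, a factor that restrains fat cell formation, was at 3.38 RPKM in the Dnmt1+/+ and 1.47 RPKM in the Dnmt1-/- library (-1.15). Zfp703, a co-repressor, was at 8.84 and 5.0 RPKM (-0.81). Zfp238, a transcriptional repressor that acts in neuronal development, was at 9.55 and 6.93 RPKM (-0.46). Zfp516, a factor of brown fat, was at 13.7 and 10.5 RPKM (-0.38). Of 8 genes listed for germ cells or the early embryo, 3 passed 1 RPKM and none differed by over 2-fold. They were Zfp35 at 6.5 and 9.39 RPKM, Zfp37 at 2.35 and 2.28 RPKM and an entry that joined Zfp59 and Zfp607 at 3.71 and 2.57 RPKM. Zfp352 was listed at 0 in both libraries, and Zfp296 was at 0.978 and 0.894 RPKM.

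Zfp-named genes were gathered in the genome. When neighbours at most 500 kb apart were joined and at least 3 entries were asked for, 28 clusters on 12 chromosomes held 174 of the 310 entries, and 9 of the clusters lay on chromosome 7. A KRAB box was found in 74.5% of the kept members in clusters and in 28% of those outside. The median change of the kept members lay below 0 in 25 of the 28 clusters and below that of all kept genes in 23. At the same time 19 clusters had members on both sides of 0, 13 held a member over 2-fold lower and 4 held one over 2-fold higher. Other kept genes inside the spans of the clusters numbered 96, with a median log2 change of -0.10, and the 74 of them with neither a KRAB box nor a finger had a median of 0.0025.

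**Figure D5:**
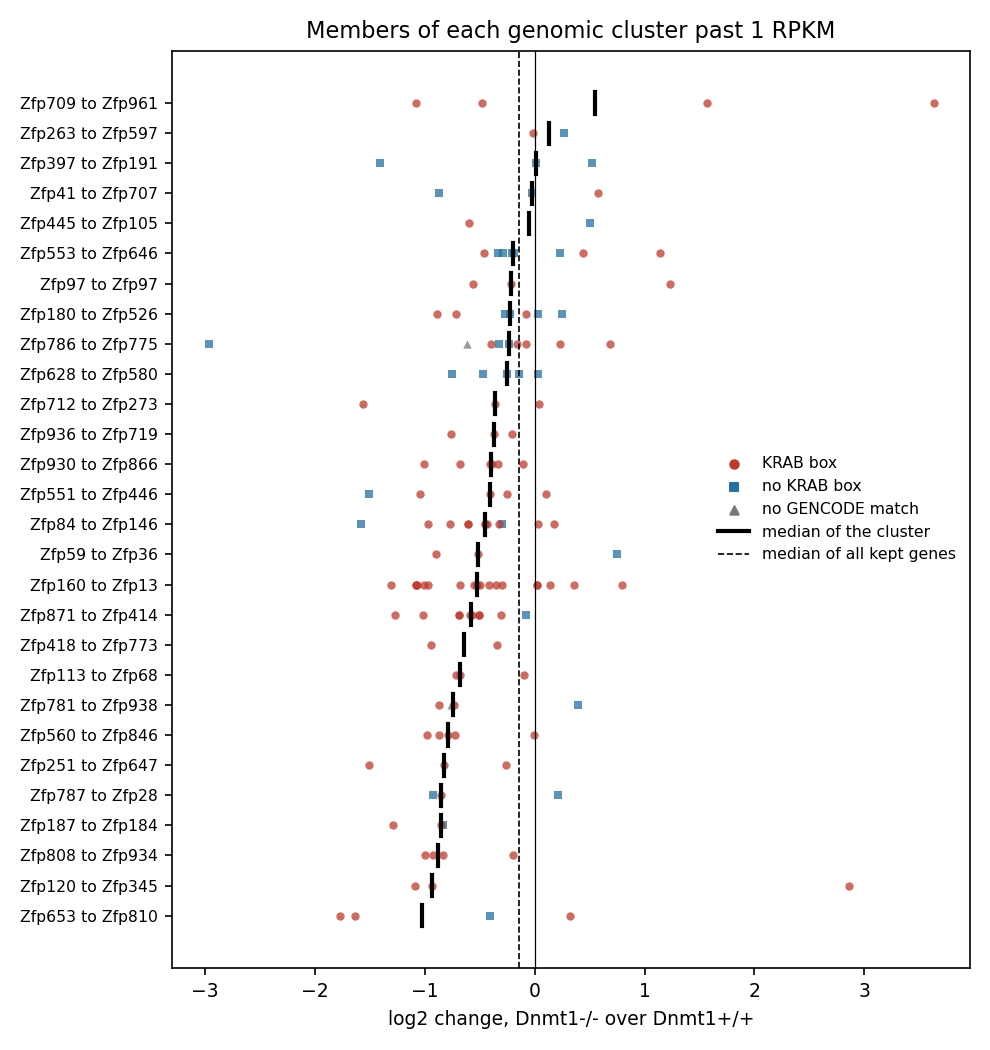
Log2 change of each kept Zfp-named gene in the 28 genomic clusters, named by their first and last member and ordered by the median (black bar); the dashed line is the median of all kept genes. Medians run from -1.02 in the cluster from Zfp653 to Zfp810 to 0.55 in the cluster from Zfp709 to Zfp961, and most clusters hold points to both sides of 0.

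The lowest and the highest cluster medians were both found in clusters of 4 members. In the cluster from Zfp653 to Zfp810 (chr9:21859883-22112082) the median was -1.02, and the members were Zfp599, Zfp810, Zfp653 at 2.32 and 1.73 RPKM, and Zfp809, the member that was higher. The retroviral silencer Zfp809 and the strongly lower Zfp599 were adjacent members. In the cluster from Zfp709 to Zfp961 (chr8:74405820-74494232) the median was 0.55, and the first 2 genes were higher while the last 2 were lower. In the cluster from Zfp120 to Zfp345 (chr2:149940143-150310799) Zfp345 was higher, whereas Zfp120 went from 3.97 to 2.04 RPKM (-0.93) and Zfp442 from 1.19 to 0.509 RPKM (-1.09; 26.9% of windows shared).

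The 3 largest clusters had medians between -0.36 and -0.52. The cluster from Zfp160 to Zfp13 (chr17:21145905-23723209) held 20 members, all with a KRAB box and 19 of them kept, with a median log2 change of -0.52. In it 5 members were over 2-fold lower, led by Zfp40 at 2.08 and 0.780 RPKM (-1.31), and the member with the highest change was Zfp677 (0.80). The cluster from Zfp712 to Zfp273 (chr13:67139530-67927937) held 16 members, all with a KRAB box, of which 3 passed 1 RPKM. These were Zfp738 at 1.38 and 0.399 RPKM (-1.56; 29.1% of windows shared), Zfp58 at 1.75 and 1.80 RPKM, and an entry that joined Zfp748 and Zfp87 at 4.82 and 3.73 RPKM. The cluster from Zfp84 to Zfp146 (chr7:30553571-30954746) held 14 members, 12 of them kept, with a median of -0.45. Zfp260 was at 13.8 and 4.54 RPKM there (-1.58), while Zfp382 was at 2.81 and 3.19 RPKM (0.18).

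Position in a cluster did not go with one direction of difference. Kept members in clusters had a median log2 change of -0.45 (n = 141) and those outside -0.34 (n = 118), a difference of -0.11. Members outside were not all isolated, since pairs of neighbours such as Zfp9 and Zfp248 did not make a cluster. Zinc finger genes without a Zfp name were not counted as neighbours. Among KRAB members the order was the other way round, with -0.52 in clusters (n = 105) and -0.89 outside (n = 33). Of the 33 outside, 13 (39.4%) were over 2-fold lower, against 15.2% of the 105 in clusters and 10.9% of all kept genes. Among members without a KRAB box the medians were -0.23 in clusters (n = 34) and -0.27 outside (n = 85).

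The cofactors of KRAB zinc finger proteins were measured at far higher levels than the zinc fingers themselves. Of 20 listed, 18 passed 1 RPKM, with a median log2 change of -0.14, the same as all kept genes. Among these 18, 2 were over 2-fold lower and none higher, against 10.9% and 8.47% of all kept genes. Trim28 was at 93.6 RPKM in the Dnmt1+/+ and 75.2 RPKM in the Dnmt1-/- library. The heterochromatin proteins Cbx1, Cbx3 and Cbx5 were at 40.7 and 37.9 RPKM, 136.9 and 104.9 RPKM, and 58.6 and 64.7 RPKM. The 2 lower were Atrx, a chromatin remodeller of heterochromatin, at 38.1 and 11.9 RPKM (-1.67), and Mphosph8, the chromodomain subunit of the HUSH silencing complex, at 43.1 and 21.2 RPKM (-1.02). Of the 18 changes, 11 lay below 0 and 7 above. Lower within 2-fold were Smarcad1 at 10.1 and 5.30 RPKM (-0.92), Hdac1 at 28.8 and 15.9 RPKM (-0.85) and Chd3 at 60.2 and 33.7 RPKM (-0.84). Hdac2 was at 152.4 and 134.4 RPKM (-0.18) and Chd4 at 85.3 and 96.4 RPKM (0.18). Uhrf1, which guides Dnmt1 to newly copied DNA, was at 49.2 and 55.1 RPKM. Setdb1 was listed at 0 in both libraries with the status FAIL, so its level was not measured here.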

How the data were processed

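Strand-specific mRNA-seq libraries of Dnmt1+/+ and Dnmt1-/- MEFs, 1 each, were analysed. The authors deposited RPKM values (scaled by transcript length and mapped reads) with a status per entry. Their processing used TopHat for mapping to mm9 (NCBI37), Cufflinks for assembly and Cuffdiff for quantification. Program versions, any further scaling, and whether strand was used to assign reads are not given in the sources used here. RPKM values carry no counts, so the depth behind a value is unknown and no interval or detection limit is given. RNA was isolated in replicate, and whether it was pooled for these libraries is not stated.

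Entries of status OK that named a gene were kept if either library reached 1 RPKM, and a change was the difference of log2(RPKM + 0.1). Called means past 2-fold, since no test is possible with 1 library per group. Locus starts, counted from 0 in the table, were raised by 1. Transcript sequence, G and C content, C2H2 fingers (by pattern) and shared 50-base windows came from GENCODE M1, matched by symbol and overlapping locus for 308 of 310 members. The KRAB box was planned from RefSeq proteins by a regular expression. As no protein table was used, translated GENCODE coding sequences were searched with a profile built from 207 matches of that expression (E-value under 0.001). Promoters came from RefSeq (GRCm38.p6).

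The members and lists were chosen with earlier results of these data known. The genes named were the 10 largest rises and falls, the 5 highest in each library, extremes of clusters, and members or cofactors with known roles. Zfp600, Zfp936, Zfp583, the partners and neighbours of named genes, the sequences printed and the letters searched were chosen after values were seen. One item covered by the name rule is not reported here. The medians were checked on shuffled log2 changes of these data with known shifts added, and the joining of clusters on made-up positions. These checks cover the calculation, not the noise between libraries. Alternatives were other pseudocounts, filters, thresholds, gaps, subtraction of medians, autosomes, single-symbol entries, finger and window criteria. Python 3.11.15, numpy 2.4.6, pandas 2.3.3, pyhmmer 0.12.3, biopython 1.88 and matplotlib 3.10.9 were used.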

Additional observations from a re-analysis of the deposited data

How the results depend on the processing

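With 1 library per genotype no library could be left out, and no value has a replicate error. No paired analysis was possible because each group has 1 library and the replicate numbers only name it. The planned restriction by RefSeq proteins was not run, and the settings by GENCODE fingers, shared windows, transcript GC and KRAB definition were added after seeing the data. The number of Zfp-named genes over 2-fold higher (7) was 2 with a pseudocount of 1, 11 with no filter, 4 without members sharing over 10% of windows and 11 at 1.5-fold. The number over 2-fold lower (43) was 15 with a pseudocount of 1, 27 after subtraction of the median of all genes, 20 after subtraction by transcript GC and 100 at 1.5-fold. The median change (-0.41) stayed below 0 under every setting run, at -0.31 and -0.42 with pseudocounts of 1 and 0.01, -0.38 with no filter or with a mean RPKM of at least 1, -0.26 after subtraction of the median of all genes, -0.40 on autosomes, -0.39 without window-sharing members and -0.21 after subtraction by GC. By Dnmt1+/+ level, a pseudocount of 1 gave 0.030 at 0, 0.11 under 0.1, -0.11 at 0.1 to under 1, -0.37 at 1 to under 5 and -0.25 at 5 to under 20 RPKM, and bins by the mean of both libraries gave 0.069, -0.39, -0.49, -0.25 and, at 20 RPKM and over, 0.048, where the sign changed from -0.08. The difference between members in clusters and in no cluster (-0.11) was -0.042 at a gap of 200 kb, -0.10 at 1 Mb and -0.059 with a pseudocount of 1. It changed sign to 0.37 among KRAB members and to 0.014 after subtraction by GC. The difference between members with and without a KRAB box (-0.31) was -0.21 with a pseudocount of 1, -0.22 with no filter, -0.35 by the regular expression alone and -0.11 after subtraction by GC. Promoter windows from GENCODE placed 30 members rather than 6 under 5 CpGs and moved the medians from -0.30 to -0.46 there, from -0.53 to -0.56 at 5 to under 10, from -0.49 to -0.47 at 10 to under 20 and from -0.18 to -0.30 at 30 and over. The causes of these shifts were not tested.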

Other observations

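Kept genes without a Zfp name that held a KRAB box and at least 1 C2H2 finger numbered 34, and had a median log2 change of -0.58. In this group 12 genes (35.3%) were over 2-fold lower and 4 (11.8%) higher, against 10.9% and 8.47% of all kept genes. Their transcripts had a median of 39.6% G and C, lower than the 42.5% of the KRAB members, and their median level in the Dnmt1+/+ library was 2.15 RPKM. Kept genes without a Zfp name or a KRAB box but with 4 or more fingers numbered 93, with a median of -0.44, 15 (16.1%) over 2-fold lower and 1 (1.08%) higher. These transcripts had a median of 49.5% G and C, against 51.3% in members without a KRAB box, whose median change was -0.25.

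On the X chromosome 3 members passed 1 RPKM. Zfp182 was at 2.11 RPKM in the Dnmt1+/+ and 1.04 RPKM in the Dnmt1-/- library and Zfp449 at 4.93 and 2.53 RPKM, both lower by just under 2-fold, while Zfp275 was at 12.9 and 12.4 RPKM.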
